A study of Mus musculus with 6 samples.

Results

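The oxytocin receptor gene Oxtr and 6 genes of contractile proteins, Acta2, Myh11, Mylk, Cnn1, Tagln and Tnnt2, were followed in luminal epithelial cells of the mammary gland of Ocln knockout mice. The genes were chosen by symbol, with their fold changes and p-values in this comparison already known, and all 7 are among the 16701 genes of the authors' deposited table. RNA with a poly(A) tail was sequenced in 6 libraries, 3 of wild-type control mice and 3 of Ocln knockout mice, each taken at 7 weeks of age. The promoter or deletion strategy behind the knockout, the strain, how the luminal cells were isolated and whether each library came from its own mouse are not stated in the labels. Ocln encodes occludin, a membrane protein of tight junctions, and the series asks about its work with FIP5 on the mitotic spindle. Ocln itself, which checks the labels, had a log2 change of -1.15 ± 0.16 (SE, DESeq2 adjusted p = 4.36e-09) in the authors' deposited table. Ocln RNA was thus lower but not gone, at 44.9 percent of control (95 percent interval 35.9 to 56.2), and where along the gene those reads lie is not shown.

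In the mammary gland, milk is made by luminal cells and pushed out by the myoepithelial cells that wrap around them. Oxytocin binds its receptor, a G protein-coupled receptor, which acts through Gq and phospholipase C to release calcium. Calcium with calmodulin switches on myosin light chain kinase, and myosin then pulls on actin filaments as it does in smooth muscle. Serum response factor and its cofactors drive many smooth muscle genes from a promoter element called the CArG box. Troponin T is a thin-filament protein of striated muscle, not of this smooth muscle machinery, so Tnnt2 does not belong to the myoepithelial set by its textbook role.

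Of the 7 genes, Oxtr fell and Tnnt2 rose, and the other 5 did not pass. Passing means an adjusted p under 0.05 in the authors' DESeq2 test, which 1.08 percent of all listed genes did, 0.808 percent as rises and 0.275 percent as falls. An unadjusted p under 0.05, which 9.07 percent of all genes had, and the authors' own call of Up or Down, which 2.79 percent had, also took Oxtr and Tnnt2 alone among the 7. Because these values helped choose the genes, they are given as a description, and nothing is read from the counts. Changes below are log2 fold changes, knockout over control, with their SE. Fewer cells of a type and less RNA per cell cannot be told apart in bulk RNA.

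Stretches before the transcript starts are shown for Oxtr and Tnnt2, the genes that passed, and the CArG-like words for Acta2, which did not. The sequences are from RefSeq on GRCm38.p6, and run 5′ to 3′ on the strand of the gene. The longer stretches leave out bases that GENCODE vM21 places in an exon, while the Acta2 words lie before the RefSeq start but within the first exon of GENCODE. Capitals mark, in Tnnt2, a match to the MCAT motif, CATTCC on either strand, which TEAD factors bind, and, in Acta2, CArG boxes with 1 mismatch. The Oxtr stretch has no match and so no capitals.

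Oxtr, chr6:112489944-112490075, minus strand: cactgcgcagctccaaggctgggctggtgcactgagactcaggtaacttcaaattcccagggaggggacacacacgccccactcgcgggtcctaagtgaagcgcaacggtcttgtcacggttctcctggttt
Tnnt2, chr1:135836084-135836333, plus strand: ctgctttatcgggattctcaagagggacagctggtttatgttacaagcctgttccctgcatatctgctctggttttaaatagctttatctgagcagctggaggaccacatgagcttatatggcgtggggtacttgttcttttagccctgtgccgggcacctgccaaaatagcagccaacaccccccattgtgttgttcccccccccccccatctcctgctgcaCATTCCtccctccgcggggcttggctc
Acta2, chr19:34255448-34255457, minus strand, bases 84 to 75 before the start: CCCTATATGG
Acta2, chr19:34255398-34255407, minus strand, bases 34 to 25 before the start: CCTTGTTTGG

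RefSeq promoter windows matched 5 of the 7 genes, Oxtr, Acta2, Mylk, Cnn1 and Tnnt2, with a pair of windows for Tnnt2. In the 250 bases before the start, a CArG box with no mismatch was found in 0 of the 5 genes and in 1.47 percent of all 32851 promoter windows. With 1 mismatch allowed in the middle bases, it was found in Acta2, at both words shown, and in 8.59 percent of all windows. The MCAT motif was found in Acta2, Mylk and Tnnt2 and in 12.6 percent of all windows. The Tnnt2 match lies 27 to 22 bases before the first of its starts, while the other Tnnt2 window and the Oxtr window held neither motif. The Mylk match lies 158 to 153 bases before its RefSeq start, at positions 34784792 to 34784797 of chromosome 16. These positions are inside the GENCODE span of Mylk, which begins at 34745210. The motif searches overlap at no base in these genes. A match describes letters only and shows no binding.

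**Figure D1:**
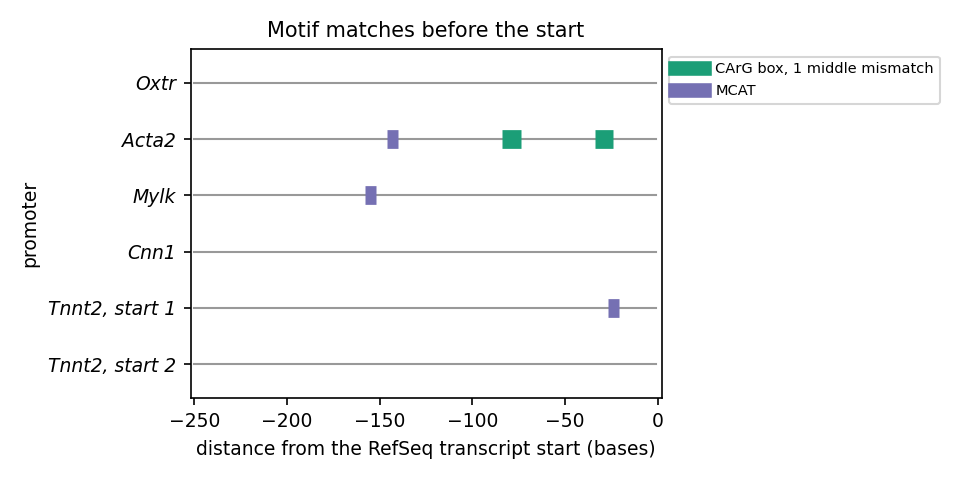
Positions of motif matches in the 250 bases before each RefSeq transcript start (x axis, bases from the start) for the 5 genes with a promoter window, 1 line per window. Green bars are CArG boxes with 1 middle mismatch, found in Acta2 alone among these, and purple bars are MCAT motifs, found in Acta2, Mylk and Tnnt2.

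Oxtr occupies positions 112473683 to 112489943 of chromosome 6 (GRCm38, minus strand), and no other gene of GENCODE vM21 overlaps it. Its mean level over the libraries was 390 normalized counts in the authors' deposited table, close to the median of all genes, 399. Its log2 change was -1.55 ± 0.38 (SE) in that table (DESeq2 adjusted p = 0.00733, unadjusted p = 3.95e-05). The knockout therefore held 34.2 percent of the control amount (95 percent interval 20.5 to 57.1), as computed from the authors' deposited table. The mean level and the fold change together imply about 581 normalized counts in control and 199 in knockout libraries, if the fold is the ratio of the genotype means. By p-value Oxtr stood at rank 90 of the 16701 genes, and 64 genes, itself included, had a log2 fold change as low or lower.

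The SE of Oxtr, 0.38 in the authors' deposited table, was wide for its level. The 1368 genes with a mean level within 1.25-fold of that of Oxtr had a median SE of 0.21. Values per library were not analysed here, so which libraries were high or low, and whether the genotypes overlap, is not shown for any gene. The interval of Oxtr, up to 57.1 percent of control, takes this SE into account.

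**Figure D2:**
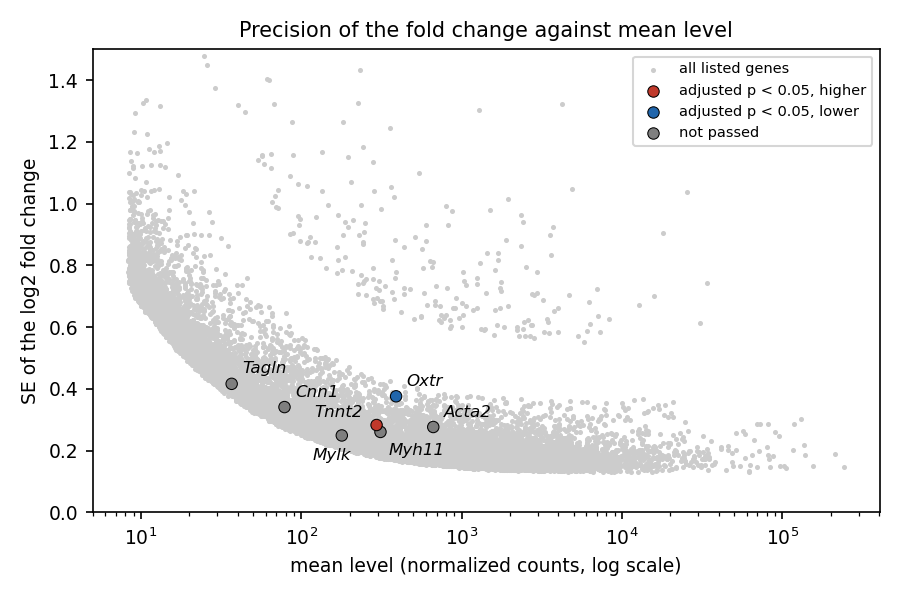
SE of the log2 fold change (y axis, log2 units) against mean level (x axis, normalized counts, log scale), with 1 point per listed gene and the 7 genes named. Oxtr, at an SE of 0.38, lies above most genes of its level, while Cnn1 (0.34) and Tagln (0.42) lie within the main band. Acta2 (0.28), Tnnt2 (0.28) and Myh11 (0.26) also exceed the median SE of genes of like level, 0.19, 0.22 and 0.22. 15 genes with an SE over 1.5 are outside the plotted range.

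Of 30 genes of oxytocin receptor coupling and calcium release, 28 were listed. By DESeq2 0 rose and 0 fell, beside 0.808 and 0.275 percent of all genes. Before adjustment, a p under 0.05 was reached by 2 higher and 0 lower genes, against 5.23 and 3.83 percent of all genes. The median log2 change of these 28 was 0.03, against -0.01 over all genes, and the listed genes ran from -0.79 to 0.92. Gnaq, the Gq alpha subunit, had a log2 change of -0.06 ± 0.17 (SE) and Plcb3, a phospholipase C beta, -0.03 ± 0.15 in the authors' deposited table. The calcium release channel gene Itpr3 stood at -0.00 ± 0.17 there. Their relatives there were Gna11 (-0.20 ± 0.16), Plcb1 (-0.37 ± 0.21), Plcb4 (-0.44 ± 0.27), Plcb2 (0.92 ± 0.59), Itpr1 (0.05 ± 0.16) and Itpr2 (0.21 ± 0.21). The highest mean levels were those of Arrb1, a beta-arrestin that uncouples receptors (0.63 ± 0.20, adjusted p = 0.0849), and the calcium pump gene Atp2a2 (0.05 ± 0.15), per the authors' deposited table. Avpr1a, the related vasopressin receptor gene, is not among the listed genes. Of the genes named here, all but Arrb1, Atp2a2 and Avpr1a were chosen after their values were seen.

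Acta2, the smooth muscle alpha-actin that fills the contractile filaments, had the highest mean level of the 7 genes, 665 normalized counts in the authors' deposited table. Its log2 change there was -0.16 ± 0.28 (SE, DESeq2 adjusted p = 0.95), or 89.6 percent of control (95 percent interval 61.5 to 130.4). That interval spans 100 percent. The intervals of Acta2, Myh11, Mylk and Tagln do not reach that of Oxtr, while that of Cnn1 does. A test between genes needs values per library and was not run.

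Myh11, the smooth muscle myosin heavy chain, had a mean level of 312 normalized counts and a log2 change of 0.05 ± 0.26 (SE, DESeq2 adjusted p = 0.984) in the authors' deposited table, or 103.6 percent of control (95 percent interval 72.7 to 147.7). Mylk, the myosin light chain kinase that calcium and calmodulin switch on, had a mean level of 179 and a log2 change of -0.07 ± 0.25 in the authors' deposited table (DESeq2 adjusted p = 0.979). The knockout level of Mylk was 95.5 percent of control (95 percent interval 68.1 to 134.0 percent). Mylk also encodes a long non-muscle kinase, and the table gives 1 value for all its transcripts.

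Cnn1, calponin, an actin-binding protein that restrains myosin, had a mean level of 78.5 normalized counts and a log2 change of -0.19 ± 0.34 (SE, DESeq2 adjusted p = 0.953) in the authors' deposited table. That is 87.9 percent of control (95 percent interval 55.3 to 139.7). Tagln, transgelin or SM22, which cross-links actin, was the lowest of the 7 at 36.8 normalized counts, with a log2 change of 0.67 ± 0.42 in the authors' deposited table (DESeq2 adjusted p = 0.693). Its 95 percent interval, 90.2 to 279.7 percent of control, is the widest of the set. On the opposite strand, Gm48529 covers 62.4 percent of the exon bases of Tagln and had a mean level of 69.4 and a log2 change of 0.65 ± 0.34 in the authors' deposited table. Pcsk7, also on the opposite strand, covers 5.43 percent of the exon bases of Tagln (mean level 1315, log2 change 0.26 ± 0.15 there). The labels do not say whether reads were counted by strand. Whether reads of these 2 genes enter the value of Tagln is therefore not known, and that value is uncertain.

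**Figure D3:**
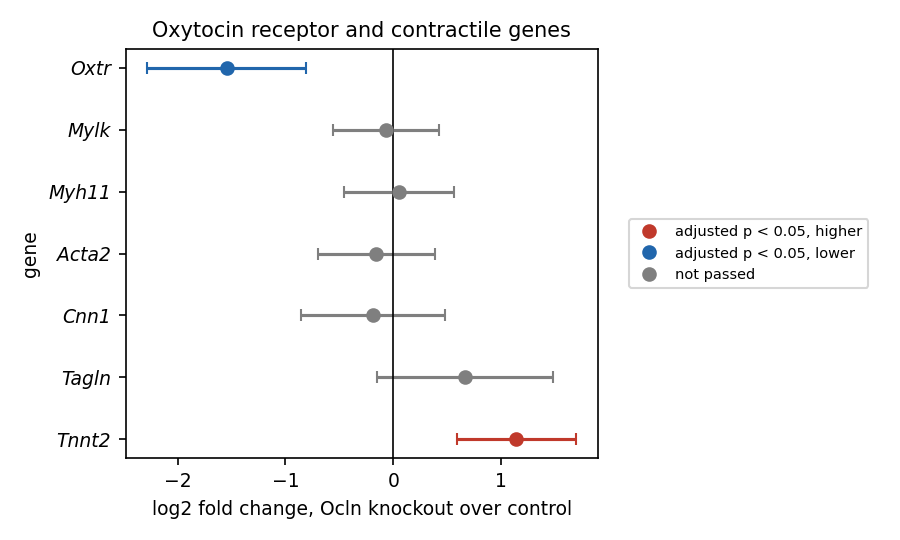
Log2 fold change, knockout over control (x axis), of the 7 genes (y axis), with bars of the 95 percent interval computed from the SE in the authors' deposited table. The bar of Oxtr (-1.55) lies wholly below 0, that of Tnnt2 (1.14) wholly above 0, and those of the other 5 genes cross 0.

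Of 27 other contractile and actin-filament genes of smooth muscle, 26 were listed, 1 rose and 0 fell, beside 0.808 and 0.275 percent of all genes, with a median log2 change of 0.03. The rise was Palld, palladin, an actin-bundling scaffold, at 1.01 ± 0.24 (SE, DESeq2 adjusted p = 0.00399) and a mean level of 1669 normalized counts in the authors' deposited table. Actg2, the smooth muscle gamma-actin (-0.03 ± 0.49, mean level 24.1), and Myl9, the light chain that the kinase acts on (0.16 ± 0.28, mean level 102), did not pass there. The broadly expressed relatives were higher in mean level than the member each resembles and also missed the threshold in the authors' deposited table, with Myh9 at -0.07 ± 0.18, Myh10 at -0.07 ± 0.26, Tagln2 at 0.02 ± 0.16, Cnn2 at -0.14 ± 0.19 and Cnn3 at -0.23 ± 0.18. Csrp1, a LIM protein of actin filaments, had the highest mean level of the list and a log2 change of 0.23 ± 0.18 in the authors' deposited table.

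Among 18 genes that set myosin light chain phosphorylation, 16 were listed, with a median log2 fold change of 0.08. By DESeq2 1 rose and 0 fell, beside 0.808 and 0.275 percent of all genes. The rise was Mylk2, the skeletal muscle form of the kinase, at 2.03 ± 0.59 (SE, DESeq2 adjusted p = 0.049) on a mean level of only 28.1 normalized counts in the authors' deposited table. The call of Mylk2 was lost when the Wald scores were divided by the root of their inflation (adjusted p = 0.131). Ppp1cb, the catalytic subunit of myosin phosphatase (0.09 ± 0.15), and the calmodulin gene Calm2 (-0.02 ± 0.14) had the highest mean levels in the authors' deposited table and missed the threshold. Mylk3 and Mylk4 are not among the listed genes.

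Of 12 genes of serum response factor and its cofactors, 11 were listed, with a median log2 fold change of 0.10. By DESeq2 0 rose and 0 fell, beside 0.808 and 0.275 percent of all genes. An unadjusted p below 0.05 was reached by 1 higher and 0 lower genes, against 5.23 and 3.83 percent of all genes. Srf stood at 0.03 ± 0.18 (SE) with a mean level of 5889 normalized counts, and Tead2, a factor of the MCAT motif, at 0.07 ± 0.22 in the authors' deposited table. Myocd, the smooth muscle cofactor myocardin, is not among the listed genes, whose lowest mean level is 8.35.

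Tnnt2 encodes the cardiac form of troponin T. It lies on the plus strand of chromosome 1, from 135836354 to 135852260 on GRCm38, with no overlapping gene in GENCODE vM21. Its mean level was 295 normalized counts and its log2 change 1.14 ± 0.28 (SE, DESeq2 adjusted p = 0.00881, unadjusted p = 5.43e-05) in the authors' deposited table. This is a 2.21-fold rise, or 220.8 percent of control (95 percent interval 150.3 to 324.4). The implied levels are about 184 normalized counts in control and 406 in knockout libraries. By p-value Tnnt2 stood at rank 103. Its SE, 0.28, compares with a median of 0.22 among 1281 genes of like level.

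**Figure D4:**
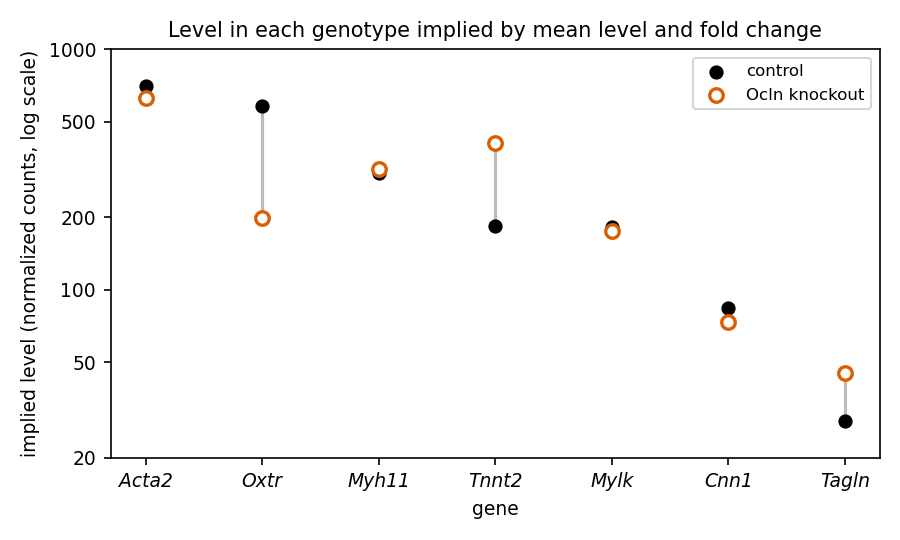
Level of each of the 7 genes in control (filled) and knockout libraries (open), in normalized counts on a log axis, computed from the mean level and fold change of the authors' deposited table, with no spread between libraries. Oxtr drops from about 581 to 199 and Tnnt2 climbs from about 184 to 406, while Acta2 (702 and 629), Myh11 (306 and 317) and Mylk (183 and 175) nearly coincide.

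Of the troponin I and C genes, whose proteins join troponin T in the striated thin filament, Tnni3 and Tnnc1 were listed and neither passed. Of 22 troponin, cardiac and skeletal muscle genes, 7 were listed. By DESeq2 0 rose and 0 fell, beside 0.808 and 0.275 percent of all genes. An unadjusted p under 0.05 was reached by 0 in either direction, against 5.23 and 3.83 percent of all genes. Tnni3, cardiac troponin I, had a mean level of 198 normalized counts and a log2 change of 0.13 ± 0.21 (SE) in the authors' deposited table. Per kilobase of its longest transcript, Tnni3 lay at percentile 60.3 of all listed genes. Tnnc1, the troponin C of heart and slow muscle, stood at 1.17 ± 0.72 on a mean level of 29.1, and the myoglobin gene Mb at -0.67 ± 0.41, per the authors' deposited table. Tnnt1, Tnnt3, Tnni1 and Tnni2 are not among the listed genes.

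Genes next to Oxtr and Tnnt2 on the chromosome were looked up in the same comparison. The nearest listed genes on either side of Oxtr, Lmcd1 (0.28 ± 0.33 SE) and Gm15519 (-0.14 ± 0.17), missed the threshold in the authors' deposited table. The desmosome gene Pkp1, 19.1 kb beyond Tnnt2, rose by 1.01 ± 0.19 (DESeq2 adjusted p = 0.000126), and Lad1, 3.01 kb before it, stood at 0.60 ± 0.18 (adjusted p = 0.067), per the authors' deposited table. Gm28883, 17.5 kb beyond Tnnt2 and nearer than Pkp1, had a value of -0.15 ± 0.52 there.

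The libraries were luminal by their markers, and basal keratins were far below luminal ones. All 16 luminal epithelial markers were listed, with mean levels from 3504 to 84084 normalized counts and a median log2 change of -0.08. By DESeq2 0 of the 16 passed, beside 1.08 percent of all genes. An unadjusted p below 0.05 was reached by 2 higher and 1 lower genes, against 5.23 and 3.83 percent of all genes. Higher were Cldn7 (0.39 ± 0.15 SE) and Elf5, and lower was Krt19 (-0.36 ± 0.18), named after their values were seen in the authors' deposited table. Krt18 (-0.10 ± 0.15 SE) and Krt8 (-0.06 ± 0.14) had the highest mean levels in the authors' deposited table. Genes of hormone-sensing luminal cells had negative values there, Esr1 -0.69 ± 0.58, Foxa1 -0.54 ± 0.31, Prlr -0.40 ± 0.26, Gata3 -0.39 ± 0.24 and Pgr -0.30 ± 0.30. The progenitor genes Elf5 (0.51 ± 0.17) and Kit (0.36 ± 0.20) had positive values in the authors' deposited table. The DESeq2 adjusted p-values of these 7 genes ran from 0.157 for Elf5 to 0.872 for Pgr. All 7 were chosen after their values were seen, and their part in the fall of Oxtr was not tested. Per kilobase of the longest GENCODE transcript, the mean level of the luminal keratin gene Krt8 was 248 times that of the basal keratin gene Krt14, 597 times that of Krt5 and 96.4 times that of Acta2. On the same scale Acta2 lay at percentile 70.4 of all listed genes, Tnnt2 at 40.0, Oxtr at 38.8, Myh11 at 30.4, Cnn1 at 25.4, Tagln at 20.9 and Mylk at 20.8. Krt14 lay at percentile 47.5 and Krt5 at 31.9.

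Of 24 genes of basal and myoepithelial identity, 21 were listed, with a median log2 fold change of -0.03. By DESeq2 2 rose and 0 fell, beside 0.808 and 0.275 percent of all genes. Before adjustment, a p under 0.05 was reached by 3 higher and 0 lower genes, against 5.23 and 3.83 percent of all genes. Krt14 (-0.14 ± 0.30 SE), Krt5 (-0.19 ± 0.39) and Trp63, the basal transcription factor p63 (-0.76 ± 0.40, adjusted p = 0.569), missed the threshold in the authors' deposited table. So did the basal keratin genes Krt17 (0.86 ± 0.42, adjusted p = 0.514) and Krt15 (-0.09 ± 0.37), named after their values were seen. The rises that passed were Mme, the membrane peptidase CD10 (1.06 ± 0.18, DESeq2 adjusted p = 4.49e-06), and Dkk3, a secreted Dickkopf-family protein (1.69 ± 0.41, adjusted p = 0.00584), per the authors' deposited table. Mme had a mean level of 6993 normalized counts, beside 216 for Krt14, 116 for Krt5 and 52.4 for Trp63 in the authors' deposited table. Which cells carried the Mme RNA was not tested. Itga6, an integrin of basal and luminal progenitor cells, shared the highest mean levels of the list with Mme and stood at -0.45 ± 0.24 there. Cav1, caveolin, named after its value was seen, had the lowest value of the list at -1.27 ± 0.83 (adjusted p = 0.725), per the authors' deposited table. The summed implied level of the list was 36604 normalized counts in control and 36761 in knockout libraries, and 32065 and 27315 without Mme. Snai2, Il17b and Wif1 are not among the listed genes. A test of Oxtr against these genes was not run.

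Smooth muscle cells of vessels and fibroblasts could also carry contractile genes. Of 13 pericyte and vascular smooth muscle markers, 10 were listed, with a median log2 fold change of -0.24. By DESeq2 0 passed, beside 1.08 percent of all genes. An unadjusted p below 0.05 was reached by 0 higher and 3 lower genes, against 5.23 and 3.83 percent of all genes. The 3 were the endothelin receptor gene Ednra (-1.01 ± 0.36 SE) and the guanylate cyclase subunit genes Gucy1a1 (-0.91 ± 0.33) and Gucy1b1 (-1.05 ± 0.37) in the authors' deposited table, chosen after their values were seen. Notch3 (0.16 ± 0.14) and Mcam (-0.12 ± 0.19) had the highest mean levels there. The remaining listed markers were Rgs5 (-0.36 ± 0.37), Pdgfrb (-0.10 ± 0.52), Abcc9 (-0.58 ± 0.70), Ednrb (-0.03 ± 0.37) and Cspg4 (0.54 ± 0.71) in the authors' deposited table. The summed implied level of this list was 7718 normalized counts in control and 8259 in knockout libraries, most of it Notch3, and 984 and 731 over the other 9 genes, of which 8 had a negative value. The sums over these 9 include the 3 picked genes, among them Ednra at 259 in control and 129 in knockout libraries. Of 11 fibroblast markers, 10 were listed, and by DESeq2 0 rose and 1 fell, beside 0.808 and 0.275 percent of all genes. The fall was Dcn, decorin (-1.36 ± 0.35, adjusted p = 0.0134), while Col3a1 stood at 0.25 ± 0.34, per the authors' deposited table. The summed implied level of the fibroblast markers was 1609 in control and 1411 in knockout libraries, and 1052 and 1193 without Dcn. The part of these cells in the fall of Oxtr was not tested.

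All 10 endothelial markers were listed, with a median log2 fold change of -0.01. By DESeq2 0 of these passed, beside 1.08 percent of all genes. An unadjusted p under 0.05 was reached by 0 of the 10, against 9.07 percent of all genes. Vwf (0.22 ± 0.20 SE) and Eng (-0.50 ± 0.31) had the highest mean levels in the authors' deposited table. Of 7 adipocyte markers, Fabp4 alone was listed (-0.14 ± 0.28, per the authors' deposited table). All 7 of the listed leukocyte markers, of 10, had positive log2 fold changes, with a median of 0.97 and a summed implied level of 1220 normalized counts in control and 2234 in knockout libraries. By DESeq2 0 of the leukocyte markers passed, beside 1.08 percent of all genes. At an unadjusted p under 0.05, 2 of these markers were higher, against 5.23 percent of all genes. Lyz2 (0.97 ± 0.29) and Laptm5 (1.02 ± 0.73) had the highest mean levels of them in the authors' deposited table, and their part in the rise of Tnnt2 was not tested.

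**Figure D5:**
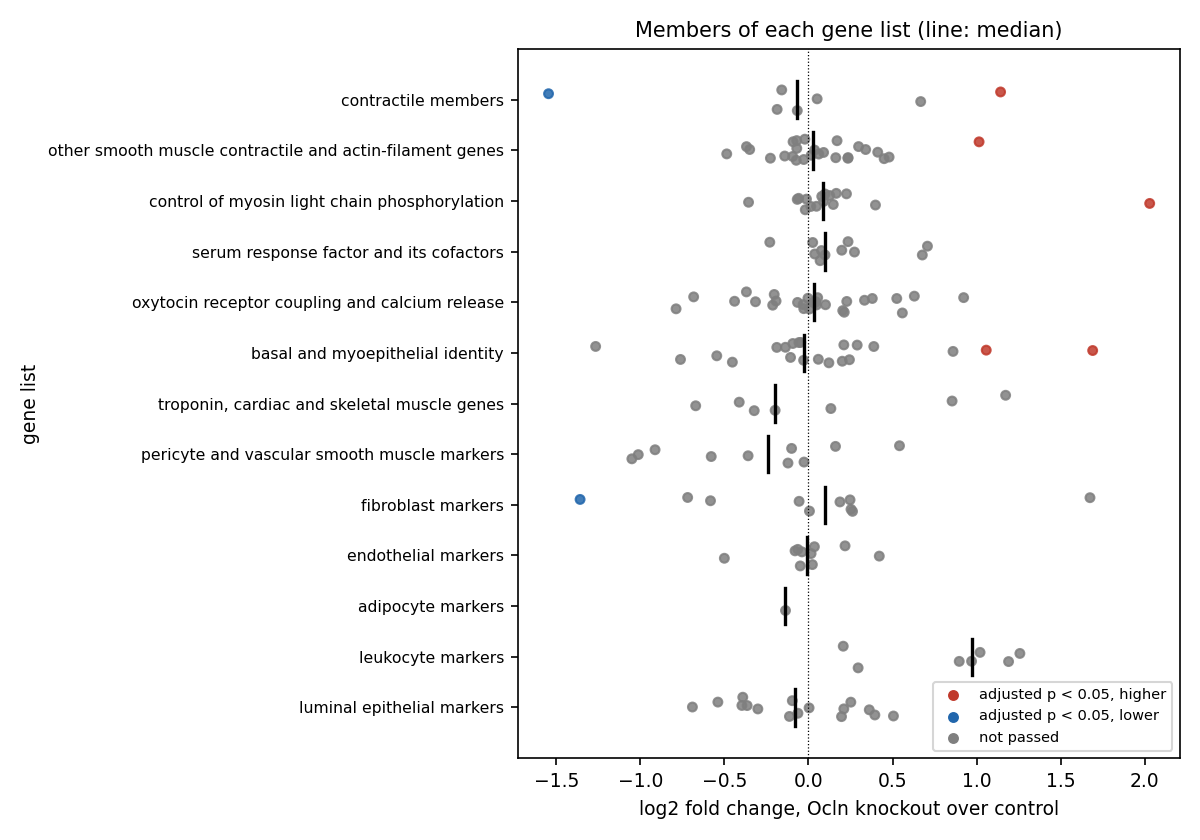
Log2 fold change, knockout over control (x axis), of every listed gene of the 13 gene lists (y axis), with the median of each list as a black line and genes passing an adjusted p of 0.05 in colour. The 7 genes span from -1.55 for Oxtr to 1.14 for Tnnt2 around a median of -0.07, while the median of the leukocyte markers is 0.97.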

How the data were processed

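The members and gene lists were chosen with earlier results of these data known. The authors' deposited table holds 1 comparison, made with DESeq2 on mm10 per the submitters' processing notes. No label or header names the aligner, counter or model. By its column names, the table of the authors, as deposited, gives a mean level (a signal, in normalized counts), a log2 fold change with its SE, a Wald statistic (a score), a p-value, an adjusted p-value and, as another kind of value, a call. Direction follows the table's name. Its adjusted p-values matched a Benjamini-Hochberg adjustment recomputed here to within 0.512 percent.

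No values per library were used, so library depth is unknown, and the count model planned for values per library and any check by library were not run. P-values measure the spread between these libraries, which may be technical. Intervals of 95 percent were taken from the SE and a normal distribution. Transcript lengths and gene positions are from GENCODE vM21, promoters from RefSeq (GRCm38.p6). Scripts used Python 3.11.15, pandas 2.3.3 and scipy 1.17.1 and were tested on simulated data. Named by rule are the 7 members, a set of relatives and basal genes (Krt5, Krt14 and Trp63 among them), Ocln, and from each list up to 4 called genes and the 2 of highest mean level. Alternatives were stricter thresholds, a level minimum, inflation, level and length corrections, median centring and the authors' calls.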

Additional observations from a re-analysis of the deposited data

How the results depend on the processing

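Oxtr kept its fall and Tnnt2 its rise under all 8 other settings for calls, with adjusted p-values from 0.00442 to 0.0285 for Oxtr and from 0.00367 to 0.0327 for Tnnt2 among those that adjust again. For an adjusted p of 0.01, the fold minimum and the authors' calls, this outcome was fixed by the deposited values. The other settings rework the same deposited scores or p-values, so none is an independent check. Myh11 changed sign once scores were centred by transcript length (adjusted p = 0.991), as did Actg2 (0.993), Calm2 (0.998) and Atp2a2 (1), and Mylk once they were centred by mean level (1), all without a call in either fit. Over all genes, the 135 rises and 46 falls became 81 and 26 at an adjusted p of 0.01, 89 and 30 after division by inflation and 301 and 165 by the authors' calls, and 83 rises had a log2 fold change of at least 1. The call of Mylk2, the 1 rise in its list, was lost (0 calls) at an adjusted p of 0.01, with mean levels of at least 50 (where it is left out), after inflation and after centring by level. Dcn was lost at 0.01 (0 falls in its list). By the authors' calls 1 vascular marker was lower and 1 leukocyte marker higher, and after centring by length, an alternative chosen after seeing the data, 1 leukocyte marker, Lyz2, rose (adjusted p = 0.039). A CArG box was in 0 member promoters without and 1 with a mismatch. With a window of 150 bases the MCAT match of Mylk was lost, while those of Acta2 and Tnnt2 stayed. No paired analysis was possible because the table holds no values per library, and for the same reason fits without each replicate and with other size factors or count filters were not run.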
